A study of Mus musculus with 18 samples.

Results

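Classical cadherins, the epithelial adhesion protein Epcam and the regulators of epithelial to mesenchymal transition (EMT) were followed in mouse gastruloids, which are cultured clusters of embryonic stem cells that elongate along an axis and make derivatives of the germ layers. The 9 genes, taken by name from the 55385 genes of the count table, were Cdh1, Cdh2, Epcam, Snai1, Snai2, Zeb1, Zeb2, Vim and Cdh11, and all 9 passed the filter on low counts. All gastruloids were wild type, of strain 129/SVEV. In the early arm CHIR was present from 24 to 48 h after aggregation, and in the control arm from 48 to 72 h. CHIR inhibits the kinase GSK3 and so activates Wnt/β-catenin signalling. Early gastruloids of 48, 72 and 96 h and control gastruloids of 48, 72 and 96 h were profiled by RNA-seq of polyA RNA, with 3 libraries in each of the 6 groups. Control gastruloids of 48 h had received no CHIR. Each library was made from gastruloids pooled in a tube, and nothing in the labels tells whether replicates were separate cultures. The p-values therefore rest on the spread among these libraries alone, and that spread may be technical.

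Cdh1 encodes E-cadherin, which joins epithelial and pluripotent stem cells to each other through homophilic contacts and binds catenins inside the cell. Cdh2 encodes N-cadherin, and in the primitive streak of the mouse embryo cells that ingress to form mesoderm lose E-cadherin and gain N-cadherin, the cadherin switch. Snail and Zeb proteins are DNA-binding repressors of Cdh1 that act in this transition. Epcam is a surface protein of epithelia and of pluripotent stem cells, Vim encodes the intermediate filament vimentin of mesenchymal cells, and Cdh11 encodes a cadherin of mesenchyme.

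In these libraries the control arm ended at 96 h with high Cdh2, Zeb1, Zeb2, Snai1 and Vim and low Cdh1 and Epcam, while the early arm at 96 h had high Cdh1 and Epcam and a small amount of Cdh2. Cdh2 was at 27.6 ± 0.591 CPM in early gastruloids of 96 h and 258 ± 27.3 CPM in controls of 96 h (mean ± SD, n = 3 libraries each). Cdh1 was at 684 ± 42.6 CPM in early gastruloids of 96 h and 326 ± 115 CPM in controls of 96 h. CPM are counts scaled by the TMM-adjusted library size. The end of the early pulse was marked by lower Cdh1 and Epcam and higher Snai1, Zeb1 and Zeb2 than in untreated gastruloids of 48 h, while Cdh2 did not pass the test.

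Total counts ranged from 14841728 to 24536538 per library. At all ages control replicate 3 stood apart from the other controls. Over the 6 pairs that hold it, the chi-square between counts was 15.4 to 28.1 per degree of freedom, and over the 12 remaining replicate pairs 1.41 to 7.90. At 96 h it was below both other controls in Cdh1, Cdh2, Epcam, Snai1, Zeb2, Vim and Cdh11. Without the 3 control libraries numbered 3, 7 members were called at 72 h, early against control, 9 from 48 to 72 h in controls, 9 a day after each pulse, 7 in each step of the early arm and 7 in each of the interactions, and for the other comparisons this count stands beside the result. The number of all genes called also moves when libraries are left out. At 72 h, early against control, it was 7196 with all libraries and 6139 to 7970 without single ones. A changed count is thus no result about the members alone. Pluripotency markers of the gastruloid cells summed to 1664 to 2013 CPM in the groups other than the controls of 96 h, where they summed to 312 to 587 CPM. From 72 to 96 h in controls 3 of these 4 markers were called lower and 1 higher. In that step 27.4% of all genes were called lower and 27.5% higher.

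Levels of different genes were compared per transcript length, in FPKM. In untreated gastruloids of 48 h Cdh1 was highest at 182 ± 9.09 FPKM, followed by Epcam at 114 ± 2.59 FPKM and Vim at 24.1 ± 2.16 FPKM. Cdh2 had 2.55 ± 0.191 FPKM and Snai1 1.25 ± 0.121 FPKM there, and the remaining 4 genes were under 1 FPKM. In controls of 96 h the order was Vim, Cdh1, Cdh2 and Epcam, with means of 80.2, 60.8, 49.6 and 38.3 FPKM. The ranges of neighbours in this order overlapped, but within every library Vim was above Cdh1 and Cdh2 above Epcam. Cdh1 was above Cdh2 in replicates 1 and 2 and below it in replicate 3 (36.7 and 44.1 FPKM). Snai1 at 17.7 ± 6.50, Zeb2 at 10.3 ± 1.12, Zeb1 at 4.35 ± 0.290, Cdh11 at 1.44 ± 0.640 and Snai2 at 0.569 ± 0.292 FPKM followed. In early gastruloids of 96 h the order was Cdh1 at 128 ± 7.63, Epcam at 107 ± 4.89, Vim at 34.3 ± 2.21 and Cdh2 at 5.21 ± 0.125 FPKM. Snai1 at 3.55 ± 0.791 and Zeb2 at 3.00 ± 0.592 FPKM came next, with ranges that overlapped, although Snai1 was above Zeb2 within every library. Cdh11, Zeb1 and Snai2 were under 1.2 FPKM.

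Cdh1 (ENSMUSG00000000303.12, mm10 chr8:106603351-106670246, plus strand) was at 637, 665 and 655 CPM in early gastruloids of 48 h and 1088, 1087 and 967 CPM in untreated controls of 48 h. The level at 72 h was 793, 782 and 794 CPM in early gastruloids and 713, 750.1 and 677 CPM in controls. Its level at 96 h was 665, 732 and 653 CPM in early gastruloids and 403, 380.2 and 194 CPM in controls. Early and control libraries did not overlap at any age, and the early arm was the lower at 48 h and the higher at 72 and 96 h. The early arm varied between 637 and 794 CPM over its 9 libraries, whereas the control arm spanned 194 to 1088 CPM.

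Cdh2 (ENSMUSG00000024304.14, mm10 chr18:16588877-16809246, minus strand) was at 14.9, 16.1 and 16.2 CPM in early gastruloids of 48 h and 15.9, 14.2 and 13.8 CPM in untreated controls. The level at 72 h was 17.2, 16.1 and 17.0 CPM in early gastruloids and 26.1, 34.3 and 41.7 CPM in controls. Its level at 96 h was 27.0, 28.1 and 27.7 CPM in early gastruloids and 268, 279 and 228 CPM in controls. Early and control libraries overlapped at 48 h and were apart at 72 and 96 h, with the early arm below. Early gastruloids of 96 h, 2 days after the end of their pulse, lay within the range of controls of 72 h, at the end of theirs.

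**Figure D1:**
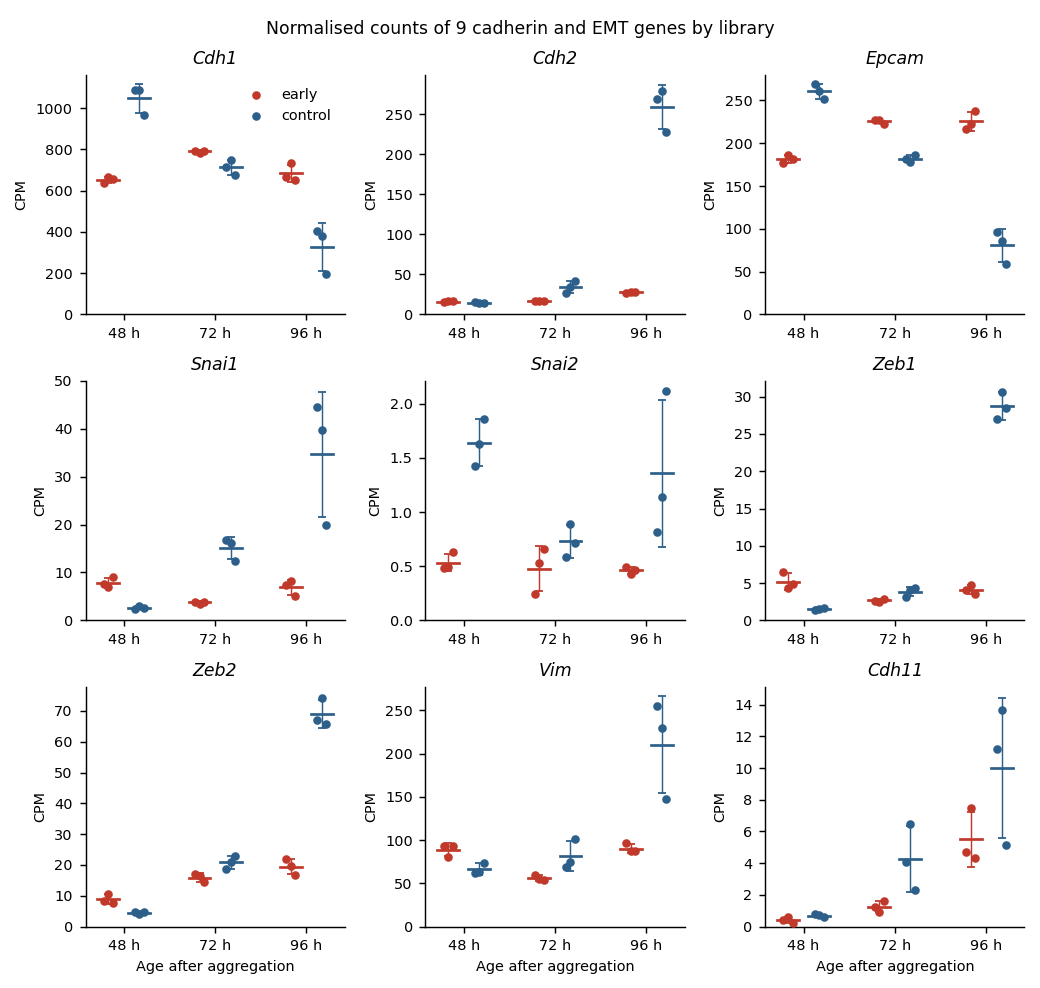
Normalised counts of the 9 genes in every library, in CPM (vertical axis, linear from 0), by age after aggregation, with the early arm (red) to the left of the control arm (blue). Points are single libraries, horizontal lines group means and vertical bars ± SD (n = 3); in the controls of 96 h Cdh2 lies between 228 and 279 CPM, above every other library, and Cdh1 lies between 194 and 403 CPM, below every other library.

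The count ratio of Cdh2 to Cdh1 within a library does not depend on how libraries are scaled. It was 0.0234, 0.0243 and 0.0247 in early gastruloids of 48 h and 0.0147, 0.0131 and 0.0143 in untreated controls. At 72 h it was 0.0216, 0.0206 and 0.0214 in early gastruloids and 0.0366, 0.0457 and 0.0616 in controls. At 96 h it was 0.0405, 0.0384 and 0.0424 in early gastruloids and 0.666, 0.735 and 1.17 in controls. Control replicate 3 of 96 h was the single library with more Cdh2 than Cdh1 counts, and its Cdh1 was the lowest of the 18 libraries. Per transcript length, Cdh2 made up 3.76% to 4.02% of the summed FPKM of both cadherins in early gastruloids of 96 h and 40.6% to 54.5% in controls of 96 h. In the 12 libraries of 48 and 72 h it made up 1.30% to 5.81%. The summed FPKM of both cadherins was 127 to 142 in early gastruloids of 96 h and 80.8 to 127 in controls of 96 h.

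On the log2 scale the ratio differed between early and control gastruloids by 0.78 at 48 h, -1.14 at 72 h and -4.36 at 96 h, early minus control. The ratio was thus 1.72-fold higher at 48 h, and 2.21-fold lower at 72 h and 20.6-fold lower at 96 h, in the early arm. In the control arm the log2 ratio was 1.74 higher at 72 h than at 48 h and 4.15 higher at 96 h than at 72 h. In the early arm it was 0.18 lower at 72 h than at 48 h (difference -0.18) and 0.93 higher at 96 h than at 72 h. Early gastruloids had a lower log2 ratio than controls at the end of each pulse (-0.96) and 1 day after it (-5.29). In each of these 9 comparisons the libraries of the groups did not overlap and the difference was larger than the pooled SD of 0.04 to 0.41. The exact permutation test, 2-sided, gave p = 0.1 for each, which is the smallest p that 3 libraries against 3 allow, and 0.1 after Benjamini-Hochberg adjustment over the 9.

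**Figure D2:**
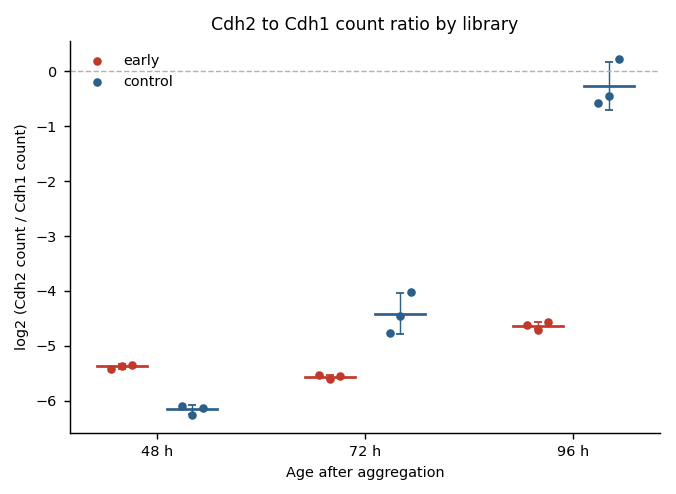
Log2 of the Cdh2 count over the Cdh1 count in each library (vertical axis), by age after aggregation, with the early arm (red) to the left of the control arm (blue). Points are libraries, horizontal lines means and bars ± SD (n = 3), and the dashed line marks equal counts; the mean at 96 h is -4.63 in the early arm and -0.27 in the control arm.

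Epcam (ENSMUSG00000045394.9, mm10 chr17:87635979-87651129, plus strand) moved with Cdh1. It was at 176, 186 and 182 CPM in early gastruloids of 48 h and 269.5, 262 and 252 CPM in untreated controls. The level at 72 h was 227, 228 and 223 CPM in early gastruloids and 182, 178 and 186 CPM in controls, and that at 96 h was 217, 223 and 238 CPM in early gastruloids and 96.4, 86.2 and 59.2 CPM in controls. The arms did not overlap at any age. Over the 18 libraries the log2 CPM of Epcam and Cdh1 had a Pearson r of 0.96, a description over libraries that share groups.

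Snai1 (ENSMUSG00000042821.7, mm10 chr2:167538195-167542814, plus strand), the Snail repressor required for gastrulation in the mouse, was at 7.49, 7.06 and 9.04 CPM in early gastruloids of 48 h and 2.44, 2.97 and 2.56 CPM in untreated controls. At 72 h it was at 3.92, 3.46 and 3.87 CPM in early gastruloids and 16.8, 16.2 and 12.5 CPM in controls. At 96 h it was at 7.46, 8.15 and 5.14 CPM in early gastruloids and 44.4, 39.8 and 19.9 CPM in controls. The arms did not overlap at any age, and each of the early libraries of 96 h was below each control of 72 h. Snai2 (ENSMUSG00000022676.7, mm10 chr16:14705852-14709385, plus strand), which encodes the related repressor Slug, had 5 to 34 counts per library. It was at 0.483, 0.491 and 0.629 CPM in early gastruloids of 48 h and 1.43, 1.63 and 1.86 CPM in untreated controls. At 72 h it ranged from 0.248 to 0.656 CPM in early gastruloids and 0.586 to 0.886 CPM in controls, which overlapped, and at 96 h from 0.426 to 0.497 CPM in early gastruloids and 0.813 to 2.12 CPM in controls, which did not. Per length, Snai2 was 4.98% to 5.39% of the summed FPKM of both Snail genes in early gastruloids of 48 h and 30.7% to 36.8% in untreated controls.

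Zeb1 (ENSMUSG00000024238.15, mm10 chr18:5591860-5775467, plus strand) was at 6.43, 4.36 and 4.86 CPM in early gastruloids of 48 h and 1.37, 1.58 and 1.73 CPM in untreated controls. By 72 h it was at 2.58, 2.53 and 2.92 CPM in early gastruloids and 3.14, 4.01 and 4.35 CPM in controls. At 96 h it was at 4.14, 4.69 and 3.52 CPM in early gastruloids and 27.0, 30.7 and 28.4 CPM in controls. The arms did not overlap at any age, and the early arm was highest at the end of its pulse by mean. Zeb2 (ENSMUSG00000026872.18, mm10 chr2:44983632-45117395, minus strand) was at 8.27, 10.6 and 7.61 CPM in early gastruloids of 48 h and 4.58, 4.11 and 4.87 CPM in untreated controls. At 72 h it was at 17.0, 16.3 and 14.3 CPM in early gastruloids and 18.5, 21.0 and 22.9 CPM in controls, and at 96 h at 21.8, 19.7 and 16.8 CPM in early gastruloids and 67.1, 74.3 and 65.9 CPM in controls. The arms did not overlap at any age for Zeb2 either, and its early libraries of 72 and 96 h overlapped each other. Zeb2os, a gene on the opposite strand at the Zeb2 locus, had at most 47 counts in a library, and the strand setting of the counting is not given in the sources used here.

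Snail and Zeb proteins bind the E-box CACCTG, read as CAGGTG on the other strand. The bases 250 to 1 upstream of the RefSeq gene start (GRCm38.p6, plus strand for both) are shown for Epcam and Snai1, with each E-box in capitals. These were the only searched members with an E-box in the window, and their change between the arms played no part in the choice.

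Epcam, chr17:87635729-87635978: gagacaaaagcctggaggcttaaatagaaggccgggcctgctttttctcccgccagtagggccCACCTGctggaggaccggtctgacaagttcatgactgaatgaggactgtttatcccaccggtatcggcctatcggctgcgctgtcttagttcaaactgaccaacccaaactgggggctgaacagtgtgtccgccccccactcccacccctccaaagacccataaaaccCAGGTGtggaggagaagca

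Snai1, chr2:167537945-167538194: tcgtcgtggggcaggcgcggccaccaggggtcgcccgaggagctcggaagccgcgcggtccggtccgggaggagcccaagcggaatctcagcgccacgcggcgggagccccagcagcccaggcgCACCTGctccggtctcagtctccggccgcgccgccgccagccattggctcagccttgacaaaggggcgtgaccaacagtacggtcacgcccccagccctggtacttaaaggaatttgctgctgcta

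The Epcam window held 2 matches, the first base of each at -187 and -19 from the gene start, and the Snai1 window held 1, at -126. The search covered both strands. The windows of Vim (1) and of Zeb2 (4 alternative starts) held no match, and Cdh1, Cdh2, Snai2, Zeb1 and Cdh11 were not searched. Of all 32851 windows of this length in the table, 17.2% held the E-box. The letters CTTTGA, 1 form of the core recognised by TCF/LEF factors, were also searched on both strands. They were in none of the windows of Epcam, Snai1, Zeb2 and Vim, and in 13.8% of all windows. Other forms of this core, such as CTTTGT, were not searched, so the windows cannot be said to lack it. The printed Snai1 window holds the letters acaaag, which read CTTTGT on the other strand. A match describes the letters and is not a measured binding site.

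Vim (ENSMUSG00000026728.9, mm10 chr2:13573927-13582826, plus strand) was at 93.1, 80.0 and 93.3 CPM in early gastruloids of 48 h and 62.4, 63.0 and 74.0 CPM in untreated controls. The level at 72 h was 60.1, 55.2 and 53.8 CPM in early gastruloids and 69.1, 74.2 and 101 CPM in controls. At 96 h it was at 96.2, 86.9 and 87.3 CPM in early gastruloids and 255, 229 and 147 CPM in controls. The arms did not overlap at any age. Cdh11 (ENSMUSG00000031673.6, mm10 chr8:102632095-102785642, minus strand) had 4 to 276 counts per library. It was under 0.8 CPM in all 6 libraries of 48 h, at 0.896 to 1.61 CPM in early gastruloids and 2.27 to 6.46 CPM in controls of 72 h, and at 4.33 to 7.48 CPM in early gastruloids and 5.11 to 13.7 CPM in controls of 96 h. The arms overlapped at 48 and 96 h.

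At 48 h, the comparison of gastruloids at the end of the early pulse with untreated gastruloids, Snai1, Zeb1, Zeb2 and Vim were higher and Cdh1, Epcam and Snai2 lower in early gastruloids, while Cdh2 and Cdh11 did not pass the test. Of the 16041 genes tested 43.7% were called in this comparison, 23.0% higher and 20.7% lower, and of the 9 members 7 were, where a call is an adjusted p under 0.05 in edgeR's quasi-likelihood test. Zeb1 had a log2 fold change of 1.75 ± 0.18 (SE, adjusted p = 2.83e-07) and Snai1 of 1.56 ± 0.28 (adjusted p = 1.87e-04). Zeb2 was at 0.97 ± 0.15 (adjusted p = 2.81e-05). On the epithelial side Cdh1 was at -0.68 ± 0.16 (adjusted p = 0.00187) and Epcam at -0.53 ± 0.10 (adjusted p = 3.17e-04). Snai2 went against Snai1, at -1.60 ± 0.34 (adjusted p = 9.72e-04). Cdh2 was at 0.10 ± 0.13 (adjusted p = 0.597). Vim, at 0.42 ± 0.16 (adjusted p = 0.0378), lost its call when any of control replicates 1 and 2 or early replicates 1 and 3 of 48 h was left out (adjusted p = 0.102 to 0.116), or early replicate 2 or 3 of 96 h (0.0501 and 0.052). The median log2 fold change was 0.10 over the members and 0.02 over all genes tested. Without the 3 control libraries numbered 3, 7 members were again called. In bulk RNA fewer cells that express a gene and less of its RNA per cell cannot be told apart.

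At 72 h, 1 day after the early pulse and at the end of the control pulse, 7 members were again called, 1 higher and 6 lower in early gastruloids. Over all genes 44.9% were called, 21.7% higher and 23.2% lower. Snai1 had a log2 fold change of -2.02 ± 0.25 (adjusted p = 3.71e-06), Cdh11 of -1.82 ± 0.41 (adjusted p = 0.00147) and Cdh2 of -1.02 ± 0.12 (adjusted p = 2.44e-06). Epcam was higher, by 0.31 ± 0.10 (adjusted p = 0.0167). Vim (-0.53 ± 0.16, adjusted p = 0.0119), Zeb1 (-0.52 ± 0.17, adjusted p = 0.0181) and Zeb2 (-0.38 ± 0.11, adjusted p = 0.0108) were lower by less. Without control replicate 3 of 72 h these 3 genes had an adjusted p of 0.1, 0.0851 and 0.0634, which left 4 members called. Zeb1 also lost its call without control replicate 2 or early replicate 1 or 2 of 72 h (adjusted p = 0.067, 0.0525 and 0.0654), and Zeb2 without early replicate 3 of 72 h (adjusted p = 0.0553). Snai2 had a log2 fold change of -0.62 ± 0.39 (adjusted p = 0.211). Cdh1 was at 0.15 ± 0.16 (adjusted p = 0.477), and reached 0.16 (adjusted p = 0.0114) once control replicate 3 of 96 h was left out, a library outside this comparison that enters the common estimate of spread.

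At 96 h all 9 members were called, 2 higher and 7 lower in early gastruloids, where 59.1% of all genes were called, 29.5% higher and 29.6% lower. All 9 were also called without the 3 control libraries numbered 3. Epcam and Cdh1 were the higher members, at 1.48 ± 0.10 (adjusted p = 1.09e-09) and 1.07 ± 0.16 (adjusted p = 1.61e-05). Cdh2 had the lowest value, -3.23 ± 0.11 (adjusted p = 1.05e-13), a level 9.36-fold lower. Zeb1 followed at -2.79 ± 0.14 (adjusted p = 1.36e-11), then Snai1 at -2.33 ± 0.23 (adjusted p = 8.20e-08) and Zeb2 at -1.83 ± 0.11 (adjusted p = 1.24e-10). Snai2 was at -1.49 ± 0.36 (adjusted p = 0.00162) and Vim at -1.23 ± 0.15 (adjusted p = 1.78e-06). Cdh11, at -0.86 ± 0.32 (adjusted p = 0.0286), overlapped between the arms and lost its call without control replicate 1 or 2 or early replicate 1 or 3 of 96 h (adjusted p = 0.0795 to 0.159). The median log2 fold change was -1.49 over the members and -0.01 over all genes tested.

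**Figure D3:**
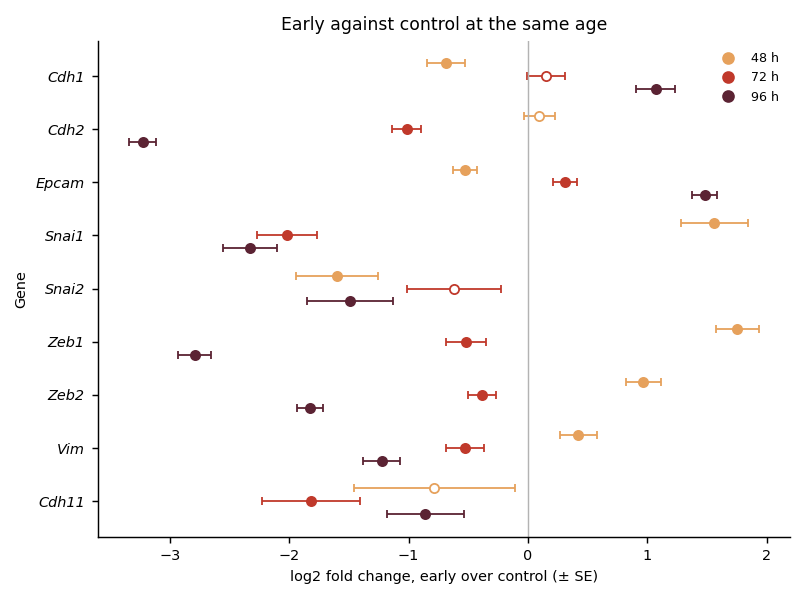
Log2 fold change of each gene, early over control at the same age (horizontal axis, ± SE), for 48, 72 and 96 h. Filled points have an adjusted p under 0.05 and open points do not; Cdh2 is at 0.10, -1.02 and -3.23 and Cdh1 at -0.68, 0.15 and 1.07 at 48, 72 and 96 h.

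Markers of other cell types moved with some of these groups. Of 8 extraembryonic endoderm markers, 7 of which were tested, 6 were higher and 0 lower in early gastruloids at 72 h. In this comparison 21.7% of all genes were higher and 23.2% lower. The same marker count held at 96 h, where 29.5% of all genes were higher and 29.6% lower. The summed level of these markers was 65.9 to 79.3 CPM in early gastruloids of 72 h and 14.1 to 29.8 CPM in controls of 72 h. It was 78.4 to 84.0 CPM in early gastruloids of 96 h and 17.6 to 53.4 CPM in controls of 96 h. No marker of this list was at 0 throughout a group at these ages. At 48 h, 4 neural markers summed to 11.2 to 13.5 CPM in early gastruloids and 43.9 to 46.5 CPM in untreated controls. Of these 4, 1 was called, lower, where 20.7% of all genes were lower. From 72 to 96 h, where Cdh2 and Zeb1 rose in controls, 3 of the 4 neural markers were called higher in controls (median log2 fold change 2.10). In that step 27.5% of all genes were called higher and 27.4% lower. Without the 3 control libraries numbered 3, 3 neural markers were higher and 1 lower. The change from 72 to 96 h was lower in the early arm than in the control arm for 3 of the 4 (median -2.76), where 15.7% of all genes were called lower. The neural markers summed to 14.7 to 24.6 CPM in controls of 72 h and 16.0 to 39.7 CPM in controls of 96 h, which overlapped. In early gastruloids of 96 h they summed to 23.2 to 25.6 CPM. Fibroblast and feeder markers, a list of 7, summed to 7.35 to 10.3 CPM in early gastruloids of 48 h and 24.0 to 29.2 CPM in untreated controls. All 4 that were tested were called lower, where 20.7% of all genes were lower. In the controls of 96 h these markers summed to 15.5 to 39.3 CPM, and in those of 72 h to 12.2 to 14.3 CPM. From 72 to 96 h in controls 2 of the 4 tested were called higher and 2 lower, where 27.5% of all genes were higher and 27.4% lower. Without the 3 control libraries numbered 3, 1 was higher and 2 lower. Dcn and Lum were at 0 in the controls of 96 h, but Lum was at 0 in every group. Vim was at 147 to 255 CPM in the controls of 96 h. The part of these cell types in the results was not tested.

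In the control arm, over the pulse, from 48 to 72 h, 5 members rose and 3 fell, where 61.4% of all genes were called, 31.1% higher and 30.3% lower. Snai1 rose by 2.51 ± 0.27 (adjusted p = 2.01e-07), and Cdh11 by 2.61 ± 0.46 (adjusted p = 7.29e-05) on the log2 scale. Zeb2 was 4.61-fold higher at 72 h than at 48 h (adjusted p = 1.17e-10). Zeb1 rose by 1.29 ± 0.19 (adjusted p = 8.86e-06) and Cdh2 by 1.20 ± 0.12 (adjusted p = 1.41e-07), and Cdh1, Epcam and Snai2 fell by 0.55, 0.52 and 1.15. Vim was at 0.29 ± 0.16 (adjusted p = 0.12), and passed without control replicate 3 of 96 h (adjusted p = 0.0235).

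Over the following day, from 72 to 96 h, 7 members rose and 2 fell in controls, where 54.9% of all genes were called, 27.5% higher and 27.4% lower. Cdh2 was 7.63-fold higher at 96 h than at 72 h, and Zeb1 rose by 2.91 ± 0.14 on the log2 scale (adjusted p = 1.37e-11). Zeb2 rose by 1.73 ± 0.11 (adjusted p = 3.30e-10), Vim by 1.38 ± 0.15 (adjusted p = 5.96e-07) and Snai1 by 1.20 ± 0.21 (adjusted p = 1.05e-04). Epcam fell by 1.17 and Cdh1 by 1.13, to 80.6 and 326 CPM at 96 h. Cdh11 rose by 1.22 ± 0.33 (adjusted p = 0.00454), with overlapping libraries. Snai2 was at 0.84 ± 0.34 (adjusted p = 0.0429), also with overlapping libraries, and at 0.40 (adjusted p = 0.303) without control replicate 3 of 96 h. It also lost its call without control replicate 1 or 3 of 72 h (adjusted p = 0.135 and 0.0798), control replicate 2 of 48 h (adjusted p = 0.0507) or early replicate 1 or 2 of 48 h (adjusted p = 0.05 for each). Without the 3 control libraries numbered 3, 8 members were called.

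In the early arm the first day after the pulse, from 48 to 72 h, went the other way for part of the set. Zeb1, Snai1 and Vim fell by 0.98, 1.07 and 0.66, and Zeb2, Epcam and Cdh11 rose, 3 members each way, where 42.6% of all genes were called, 20.7% higher and 21.9% lower. Zeb2 rose by 0.85 ± 0.12 (adjusted p = 3.02e-05), and Epcam by 0.32 ± 0.10 (adjusted p = 0.0158). Epcam had an adjusted p of 0.0561 without early replicate 1 of 48 h. Cdh11, at 1.57 ± 0.60 (adjusted p = 0.0425), lost its call without any of 7 libraries (adjusted p = 0.0505 to 0.135), namely the 3 controls of 48 h and early replicates 1 and 3 of both 48 and 72 h. Cdh1 was at 0.28 ± 0.16 (adjusted p = 0.175), and at 0.29 once control replicate 3 of 96 h was left out (adjusted p = 7.78e-05). Cdh2 was at 0.09 ± 0.13 (adjusted p = 0.604).

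From 72 to 96 h in the early arm 5 members rose and 0 fell, where 35.3% of all genes were called, 17.6% in each direction. Cdh11 rose by 2.18 ± 0.40 (adjusted p = 4.04e-04), Cdh2 by 0.72 ± 0.12 (adjusted p = 1.98e-04), Vim by 0.68 ± 0.16 (adjusted p = 0.00289) and Zeb1 by 0.64 ± 0.17 (adjusted p = 0.00638). Snai1 rose by 0.89 ± 0.27 (adjusted p = 0.0141), with an adjusted p of 0.0544 without early replicate 2 of 72 h and 0.0643 without early replicate 2 of 96 h. Zeb2 was at 0.29 ± 0.11 (adjusted p = 0.0569), and passed without early replicate 2 of 48 h, control replicate 3 of 96 h or early replicate 3 of 96 h (adjusted p = 0.0362, 0.0372 and 0.0231). Epcam was level at 226 CPM at both ages (adjusted p = 0.989). Cdh1 was at -0.21 ± 0.16 (adjusted p = 0.33), and at an adjusted p of 0.0022 without control replicate 3 of 96 h.

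**Figure D4:**
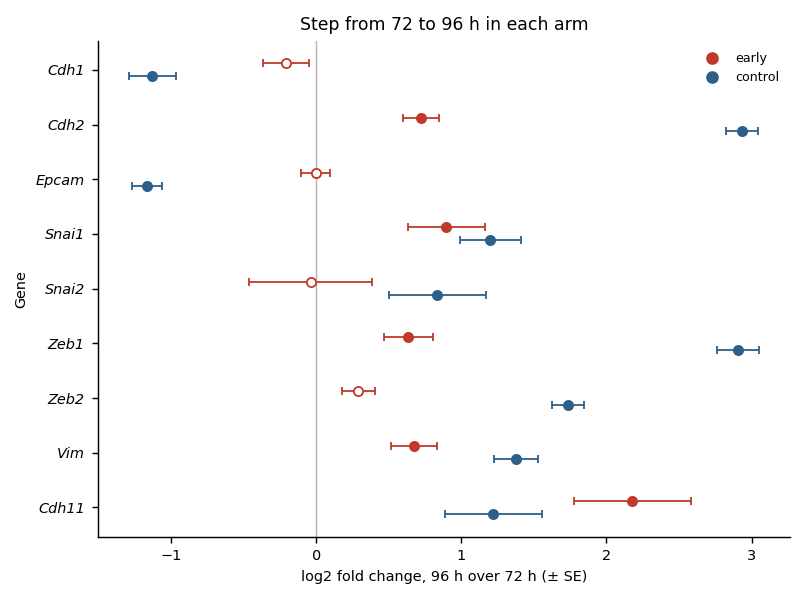
Log2 fold change of each gene from 72 to 96 h, 96 h over 72 h (horizontal axis, ± SE), in the early arm (red, upper point) and the control arm (blue, lower point). Filled points have an adjusted p under 0.05; Cdh2 is at 0.72 in the early arm and 2.93 in the control arm, and Epcam at 0.00 in the early arm and -1.17 in the control arm.

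The ends of the pulses were compared directly, early gastruloids of 48 h with controls of 72 h, which also differ in age by a day. Here 5 members were called, 1 higher and 4 lower in early gastruloids, where 61.1% of all genes were called, 29.5% higher and 31.7% lower. There were 7 calls without the 3 control libraries numbered 3. Zeb1 was the member higher in early gastruloids, at 0.46 ± 0.16 (adjusted p = 0.0174), with an adjusted p of 0.159 without early replicate 1 of 48 h and 0.102 without control replicate 1 of 72 h. Cdh11 was at -3.40 ± 0.51 (adjusted p = 1.42e-05), Zeb2 at -1.24 ± 0.12 (adjusted p = 9.46e-08), Cdh2 at -1.11 ± 0.12 (adjusted p = 4.23e-07) and Snai1 at -0.95 ± 0.23 (adjusted p = 0.00173). Cdh1 was at 652 ± 14.6 CPM in early gastruloids of 48 h and 713 ± 36.7 CPM in controls of 72 h (adjusted p = 0.501, or 0.0299 once control replicate 3 of 96 h was left out), and Epcam at 181 ± 4.68 CPM in early gastruloids of 48 h and 182 ± 4.35 CPM in controls of 72 h (adjusted p = 0.963). Per length, Zeb1 made up 26.2% to 42.4% of the summed FPKM of both Zeb genes in early gastruloids of 48 h and 14.4% to 15.3% in controls of 72 h.

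One day after each pulse, in early gastruloids of 72 h and controls of 96 h, all 9 members were called, 2 higher and 7 lower in early gastruloids, where 69.7% of all genes were called, 34.3% higher and 35.4% lower. Cdh2 was at -3.95 ± 0.12 (adjusted p = 6.81e-15), Zeb1 at -3.43 ± 0.15 (adjusted p = 6.40e-13), Snai1 at -3.22 ± 0.24 (adjusted p = 1.31e-09) and Cdh11 at -3.04 ± 0.39 (adjusted p = 1.30e-06). Epcam was higher by 1.48 ± 0.10 (adjusted p = 4.59e-10) and Cdh1 by 1.28 ± 0.16 (adjusted p = 1.26e-06). This comparison shares its control libraries with that of early and control gastruloids at 96 h.

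Whether the arms changed differently was tested as an interaction. Over the day after each pulse, the change of the early arm minus that of the control arm was -3.89 ± 0.22 for Zeb1 (adjusted p = 1.79e-10), -2.84 ± 0.17 for Cdh2 (adjusted p = 4.56e-10), -2.27 ± 0.34 for Snai1 (adjusted p = 2.81e-05) and -2.03 ± 0.22 for Vim (adjusted p = 7.90e-07). It was 1.49 ± 0.14 for Epcam (adjusted p = 2.00e-07) and 1.40 ± 0.23 for Cdh1 (adjusted p = 6.47e-05). With Zeb2, 7 members were called, 2 with a positive and 5 with a negative difference, where 44.5% of all genes were called, 22.8% positive and 21.7% negative. Snai2 and Cdh11 did not pass. Between 72 and 96 h, 6 members differed in their change, 2 with a positive and 4 with a negative difference, where 33.6% of all genes were called, 17.8% positive and 15.7% negative. For Snai1 the difference was -0.31 ± 0.34 (adjusted p = 0.531), with -0.58 (adjusted p = 0.0346) without control replicate 3 of 96 h.

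Of 10 tested EMT-promoting transcription factors outside the 9 members, 3 were higher and 6 lower in early gastruloids of 96 h, with a median log2 fold change of -0.64. Over all genes 29.5% were higher and 29.6% lower in this comparison. Foxc1, a forkhead factor of paraxial mesoderm, was at 1.28 ± 0.226 CPM in early gastruloids and 36.6 ± 20.9 CPM in controls of 96 h (-4.84 ± 0.42, adjusted p = 1.51e-08). Sox9, a factor of neural crest and cartilage, was at -3.23 ± 0.24. Going the other way, Snai3, the remaining Snail gene, was at 4.88 ± 0.66 CPM in early gastruloids and 0.576 ± 0.019 CPM in controls (3.07 ± 0.21, adjusted p = 8.25e-10), and Gsc, a factor of the anterior streak, at 4.05 ± 0.59. Twist1 was at 11.9 ± 0.645 CPM in early gastruloids and 10.9 ± 0.265 CPM in controls of 96 h (adjusted p = 0.323), although it was higher in early gastruloids of 48 h by 0.90 ± 0.14 (adjusted p = 5.09e-05). The counts at 96 h were the same without the 3 control libraries numbered 3.

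Epithelial transcription and splicing regulators were higher in early gastruloids of 96 h in 7 of 8 tested and lower in 1, with a median of 1.35, where 29.5% of all genes were higher and 29.6% lower. Without the 3 control libraries numbered 3 the counts were 6 and 1. Grhl2, which activates Cdh1 in epithelia, was at 47.0 ± 0.296 CPM in early gastruloids and 12.3 ± 2.42 CPM in controls of 96 h (1.91 ± 0.09, adjusted p = 8.90e-12). The splicing factors Esrp1 and Esrp2 were at 1.23 ± 0.08 and 1.56 ± 0.19. Grhl3, a paralogue of Grhl2 expressed in surface ectoderm, was the exception, at 3.32 ± 0.437 CPM in early gastruloids and 24.4 ± 1.73 CPM in controls (-2.88 ± 0.13, adjusted p = 4.09e-12). At 48 h the list had 2 higher and 3 lower members of 8 in early gastruloids, where 23.0% of all genes were higher and 20.7% lower, with Esrp1 at -0.88 ± 0.08 and Ovol2, a repressor of EMT genes, at -1.14 ± 0.14.

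Of 22 epithelial junction and polarity genes tested, 17 were lower, 2 higher and 3 not called in early against untreated gastruloids of 48 h, where 20.7% of all genes were lower and 23.0% higher (19 and 2 without the 3 control libraries numbered 3), with a median of -0.63 against 0.02 over all genes. Rab25, an epithelial trafficking GTPase, was at 8.17 ± 1.70 CPM in early gastruloids and 33.9 ± 0.438 CPM in untreated controls (-2.06 ± 0.14, adjusted p = 9.08e-10), and Cgn, the tight junction protein cingulin, at -1.31 ± 0.08. Llgl2 and Dsg2 were the higher ones, at 0.85 ± 0.17 and 0.73 ± 0.16. From 48 to 72 h in the early arm 18 of the 22 rose and 0 fell, a median of 0.41, where 20.7% of all genes rose and 21.9% fell (19 and 1 without the 3 control libraries numbered 3). In early gastruloids of 96 h 13 were higher and 6 lower than in controls, where 29.5% of all genes were higher and 29.6% lower. Crb3, an apical polarity protein, was at 15.5 ± 1.52 CPM in early gastruloids and 2.18 ± 0.278 CPM in controls of 96 h (2.81 ± 0.15, adjusted p = 3.40e-11). The lower ones included Dsp, the desmosomal protein desmoplakin, at 34.7 ± 5.05 CPM in early gastruloids and 136 ± 11.5 CPM in controls (-1.97 ± 0.09, adjusted p = 3.30e-12), and F11r, a tight junction adhesion molecule, at -0.86 ± 0.04.

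Among 11 other cadherins tested, 1 was higher and 7 lower in early than in untreated gastruloids of 48 h, with a median of -1.28, where 23.0% of all genes were higher and 20.7% lower (1 and 6 without the 3 control libraries numbered 3). Cdh4, which encodes R-cadherin, was at 3.71 ± 0.279 CPM in early gastruloids and 12.3 ± 1.31 CPM in untreated controls (-1.74 ± 0.15, adjusted p = 3.34e-08), and Cdh3, which encodes P-cadherin, at -0.95 ± 0.14. At 96 h 4 were higher and 3 lower of 11 in early gastruloids (5 and 3 without the 3 control libraries numbered 3), a share near the 59.1% of all genes called. Cdh6 was at 1.58 ± 0.22 CPM in early gastruloids and 21.8 ± 11 CPM in controls of 96 h (-3.76 ± 0.33, adjusted p = 2.22e-08), and Cdh20 at -3.14 ± 0.39. Cdh9 was higher, at 1.17 ± 0.201 CPM in early gastruloids and 0.144 ± 0.0554 CPM in controls (3.04 ± 0.32, adjusted p = 2.49e-07), as was Cdh3, at 0.60 ± 0.15.

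Of 10 catenins and other cadherin partners 3 were higher and 4 lower in early gastruloids of 96 h, with a median of -0.10 (3 and 5 without the 3 control libraries numbered 3), where 59.1% of all genes were called. Ctnnb1, which encodes β-catenin, was at 859 ± 13.6 CPM in early gastruloids and 1019 ± 32.0 CPM in controls of 96 h (-0.25 ± 0.04, adjusted p = 1.24e-05), a call lost on the FPKM scale (adjusted p = 0.713 with a pseudocount of 1). Jup, which encodes plakoglobin, was at 0.90 ± 0.06.

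Mesenchymal genes other than Vim were lower in early gastruloids of 96 h in 9 of 12 tested and higher in 2, with a median of -0.71 and the same counts without the 3 control libraries numbered 3, where 29.6% of all genes were lower and 29.5% higher. Pdgfrb, a receptor of mesenchymal cells, was at 4.10 ± 1.13 CPM in early gastruloids and 28.1 ± 2.53 CPM in controls of 96 h (-2.77 ± 0.18, adjusted p = 2.74e-10), and Pdgfra, a receptor of paraxial mesoderm, at 3.27 ± 0.151 CPM in early gastruloids and 76.8 ± 36.8 CPM in controls. The higher ones were Tagln, which encodes transgelin, at 2.37 ± 0.19, and Sparc, a matrix glycoprotein, at 0.96 ± 0.08. At 48 h 2 were higher and 4 lower of 12 in early gastruloids, where 23.0% of all genes were higher and 20.7% lower (3 and 4 without the 3 control libraries numbered 3), among them Fn1, which encodes fibronectin, at 1.03 ± 0.24, and Sparc at -1.04 ± 0.08.

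Of 15 regulators of EMT at gastrulation 3 were higher and 8 lower in early gastruloids of 96 h, with a median of -0.47, where 29.5% of all genes were higher and 29.6% lower (3 and 9 without the 3 control libraries numbered 3). Eomes, a T-box factor of the streak needed for EMT of mouse mesoderm, was at 174 ± 25.1 CPM in early gastruloids and 2.45 ± 1.66 CPM in controls of 96 h (6.04 ± 0.48, adjusted p = 5.95e-09), and Tbx6, a factor of presomitic mesoderm, at 1.10 ± 0.434 CPM in early gastruloids and 201 ± 89.0 CPM in controls (-7.51 ± 0.35, adjusted p = 4.71e-12). Of 10 TGF-β pathway genes, in the same comparison, 2 were higher and 8 lower, with a median of -0.70 and the same counts without the 3 control libraries numbered 3. Smad7, an inhibitor of the pathway, was at 35.5 ± 1.5 CPM in early gastruloids and 4.31 ± 0.24 CPM in controls of 96 h (3.03 ± 0.10, adjusted p = 5.84e-14), and the receptor gene Tgfbr1 at -1.02 ± 0.06.

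Over the 18 libraries, the Pearson correlations between members of log2 CPM were -0.85 for Cdh1 with Cdh2, 0.92 for Cdh2 with Zeb1 and -0.95 for Epcam with Zeb1, and those of Snai2 with the other 8 lay between -0.34 and 0.32. These describe libraries that share groups and carry no test. Among 10545 genes of at least 5 CPM, the profile most like that of Cdh2 was that of Ada (r = 0.991), followed by Sprr2a3, Plagl2, Ccar2 and Lrrc42. For Cdh1 the most alike were 2810429I04Rik (r = 0.977), Bcl11a, Tspan17, Hsd17b11 and Bcor, and for Epcam Enpp2 (r = 0.993), Snrpn, Galnt3, Snhg14 and Psors1c2. Ogt (r = 0.974), Rspry1, Gucy1a2, Ccdc57 and Aco1 were most like Snai1, and Epha4 (r = 0.968), Rell1, Tmem59, Aida and Ilrun most like Vim.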

How the data were processed

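PolyA RNA of 18 libraries, 3 in each of 6 groups, was sequenced with a stranded mRNA kit, per the labels' protocols. The treatment and stage labels gave the groups. Reads were trimmed with cutadapt 4.0, aligned with STAR 2.7.8a to mm10 and processed with Cufflinks 2.2.1, per the submitters' processing notes. How reads were counted is not given in the sources used here. The authors deposited raw counts of 55385 genes and FPKM values of 55468 genes, and 0 sample columns were unused.

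Counts were filtered with filterByExpr (16041 genes), scaled by TMM and fitted with edgeR 4.0.16 (limma 3.58.1, R 4.3.3) by a quasi-likelihood model with 1 coefficient per group over all libraries. There were 11 contrasts, 2-sided, adjusted by Benjamini-Hochberg over all genes and called under 0.05. The SE is the log2 fold change divided by the square root of F. FPKM served to compare genes. The cadherin ratio was tested by an exact permutation test. The script was tested on simulated data. Tables were made in Python 3.11.15 (pandas 2.3.3, scipy 1.17.1) and figures in matplotlib 3.10.9. Promoter windows are from RefSeq (GRCm38.p6).

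The members and lists were chosen with earlier results of these data known. The members were named in every contrast. In other lists up to 4 genes of lowest adjusted p with a mean of at least 1 CPM, genes that moved against their list, and any other cadherin or EMT factor could be named. Genes most like a member were the 5 of highest Pearson r. Alternatives tried were libraries left out, limma-trend on FPKM, a replicate block, fits of the groups compared alone, the Wald test of DESeq2 1.42.0, its size factors, and either no low-count filter or one of 1 CPM in 3 libraries.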

Additional observations from a re-analysis of the deposited data

Results flagged for a closer look

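The change over time was compared between the early and control arms by an interaction term in edgeR's quasi-likelihood test, given as log2 change in the early arm minus that in the control arm. Between 72 and 96 h it was called for 6 of the 9 genes and for 33.6% of all genes, and the differences were -2.27 for Zeb1, -2.21 for Cdh2, -1.44 for Zeb2, -0.70 for Vim, 1.17 for Epcam and 0.92 for Cdh1. That of Vim (adjusted p = 0.0199) lost its call without control replicate 1 of 72 h, early replicate 1 of 72 h or control replicate 1 of 96 h (adjusted p = 0.0558, 0.0501 and 0.0551). Over the day after each pulse it was called for 7 of the 9 genes and for 44.5% of all genes, and the differences were -3.89 for Zeb1, -2.84 for Cdh2, -2.27 for Snai1, -2.03 for Vim, -0.88 for Zeb2, 1.49 for Epcam and 1.40 for Cdh1. For Snai2 the difference of the day after the pulse was -1.01 (adjusted p = 0.139), with -1.30 (adjusted p = 0.0431) without control replicate 1 of 96 h.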

How the results depend on the processing

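Of 2750 recomputed log2 fold changes of the members, under 28 alternatives and 11 contrasts, 2652 kept their direction and side of the threshold, 67 kept their direction and lost the call, 31 gained it and 0 reversed. For the named list genes 5339 of 5488 were unchanged in this sense and 0 reversed. Members called at 72 h, early against control, numbered 7, but 3 with limma-trend on log2(FPKM + 1) of all genes and 4 to 8 with single libraries left out. The log2 cadherin ratio of early gastruloids of 72 h against those of 48 h was -0.18 in counts and -0.23 in FPKM. The cause was not tested. With limma-trend on log2(FPKM + 1), calls were lost for Vim at 48 h (adjusted p = 0.147), Epcam and Zeb1 at 72 h (adjusted p = 0.0562 and 0.0525), Zeb1 between the ends of the pulses (adjusted p = 0.207) and Cdh11 from 48 to 72 h in the early arm (adjusted p = 0.464). In fits of the groups compared alone Cdh11 lost its call at 96 h, early against control (adjusted p = 0.0765), and from 72 to 96 h in controls (adjusted p = 0.0529), as did Snai2 from 72 to 96 h in controls (adjusted p = 0.127, and 0.0747 with DESeq2). Cdh1 gained a call in these fits at 72 h, early against control (adjusted p = 0.0101), between the ends of the pulses (adjusted p = 0.0274), and in the early arm from 48 to 72 h (adjusted p = 7.41e-09) and from 72 to 96 h (adjusted p = 0.00154), and in all 4 also without the filter on low counts. With limma-trend on log2(FPKM + 1) the share of higher among called genes changed by over 10 percentage points in 7 contrasts: 41.6% against 52.7% in counts (early against control, 48 h), 38.2% against 48.3% (72 h), 30.03% against 48.2% (ends of the pulses, where the median of all genes was -0.13), 61.9% against 50.7% (control 72 h against 48 h), 70.7% against 48.7% (early 72 h against 48 h), 68.0% against 49.96% (early 96 h against 72 h) and 61.8% against 51.2% (day after the pulse, early minus control). The FPKM fit held 12333 genes with a mean of at least 0.5 FPKM, and the count fit 16041 genes. The 2 fits differ in gene set, scaling and test as well as in scale. Same-numbered libraries correlated in their deviations at over 0.1 in 3 of 27 pairs, all between control groups (r = 0.114 for replicate 3 of 48 and 72 h, and 0.166 and 0.148 for replicates 2 and 3 of 72 and 96 h). In no comparison did all 3 pairs exceed 0.1, so the numbers were not taken as pairs. At 96 h, however, each early library correlated best with the control library of its own number (r = 0.056, 0.061 and 0.098). With the replicate block 7 members were called at 48 h, 7 at 72 h and 9 at 96 h, early against control, and Zeb2 passed from 72 to 96 h in the early arm (adjusted p = 0.0483). The 3 libraries per group, and at most 34 counts of Snai2 per library, limit what can be detected.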
